A study of Mus musculus with 11 samples.

Results

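The genes that lie next to Gmnn on mouse chromosome 13 were examined for differences between limb buds that carry 2 floxed copies of Gmnn and limb buds that carry 1. The 8 genes Fam65b, Acot13, Tdp2, Aldh5a1, Gpld1, Mrs2, Dcdc2a and Nrsn1 were taken by name for their position, and all 8 were present among the 47517 genes of the counts table. The data were RNA-seq counts from forelimb buds of E10.5 mouse embryos on a C57BL/6 background. Mutants had the genotype Gmnn f/f with Prx-Cre (6 libraries), and controls had Gmnn +/f with Prx-Cre (5 libraries), so that every embryo carried the Cre transgene and at least 1 floxed allele. Prx-Cre drives Cre recombinase in limb mesenchyme, and cells of other types in the bud are outside its main domain. The libraries came from 4 litters. Controls 1 and 2 shared litter A with mutants 1 and 2. Control 3 and mutant 6 were from litter B, and control 4 and mutant 5 from litter C. Litter D held control 5 with mutants 3 and 4.

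Gmnn encodes Geminin, which holds back replication licensing by binding Cdt1. A floxed allele is made by inserting loxP sites around exons, and the genes beside it on the chromosome are inherited together with it. A mutant with 2 floxed alleles therefore also carries 2 copies of the DNA linked to that allele, and a control carries 1. Whether such neighbours change is the question put to these 8 genes. Copies of linked DNA, the deletion of Gmnn and the lower Gmnn transcript all go with genotype in this design and cannot be told apart from each other.

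The 8 genes span 688.3 kb in mm10. Fam65b (chromosome 13, 24582189 to 24733816, plus strand) is the only one of the 8 on the side of lower coordinates, 18 kb from Gmnn (24751845 to 24761923, minus strand). On the other side lie Acot13 (24817948 to 24831517, minus strand) at 56.0 kb, Tdp2 (24831679 to 24842153, plus strand) at 69.8 kb and Aldh5a1 (24907579 to 24937661, minus strand) at 145.7 kb. They are followed by Gpld1 (24943152 to 24990753, plus strand) at 181.2 kb, Mrs2 (24992483 to 25020379, minus strand) at 230.6 kb, Dcdc2a (25056004 to 25210706, plus strand) at 294.1 kb and Nrsn1 (25252040 to 25270502, minus strand) at 490.1 kb. Acot13 and Tdp2 point away from each other, with 161 bases between them. Reads were counted over exons without regard to strand. Of the 8 genes, Aldh5a1 was the only one with exon bases shared with another gene of the table, 602 of 5647 (10.66%), and reads over shared bases were not counted.

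Total counts per library ran from 14721181 to 19733288. The forelimb markers Prrx1 and Tbx5 stood at 198.6 to 312.8 and 64.8 to 122.9 CPM (reads of the gene scaled to a common library total), and the hindlimb marker Tbx4 at 0.561 to 6.11 CPM. Of the 8 mesenchyme markers, 4 were higher in mutants by fitted value, and the median log2 fold change was -0.02. The test below was passed by 2 of the 8, where 2.18% of all genes tested passed. These were Meis1 (log2 fold change -0.63, edgeR adjusted p 0.029) and Lhx9 (-0.50, edgeR adjusted p 0.0406), both lower in mutants. Both calls were lost when any 1 library other than control 5 or mutant 2 was left out. In each of those fits at most 15 of all genes tested passed. Summed red cell markers stood at 12998 to 33385 CPM in controls and 16280 to 56076 CPM in mutants, with 6 of 6 higher in mutants by fitted value and none past the test, and their part in the results below was not tested. In bulk tissue, fewer cells of a type and less RNA per cell cannot be told apart. Mutant 5 stood apart from the other libraries in its sex-linked reads, with 8 from Xist and 4 from Y-linked genes, and the results that turn on it are also given without it. Libraries also differed in the T-run measure, the mean log2 CPM of 975 genes whose transcripts hold a run of at least 18 T bases. It was 4.45 to 4.82 in controls and 4.26 to 4.64 in mutants. Within each litter every mutant was below every control, so this measure went with genotype. A fit with it as a covariate cannot tell it apart from genotype, and such a fit called 2 of 15821 genes. The titles number the embryos within each litter, and each library is a separate embryo.

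Gmnn itself was first read as the check of genotype. Its level was 150.3, 199.0, 139.3, 170.6 and 238.9 CPM in controls 1 to 5 and 103.4, 137.7, 118.8, 130.0, 102.2 and 99.5 CPM in mutants 1 to 6, without overlap. Mutants kept 62.9% of the control level (95% interval 53.8 to 73.6%), a log2 fold change of -0.67 (edgeR quasi-likelihood test, adjusted p 0.0291). The counts cover all exons of the gene, with any that lie outside the floxed segment. Its sign held in all 23 alternative fits, and its call was lost in 12 of them (edgeR adjusted p up to 0.139). Among the 12 was each fit that left out 1 library other than control 1, control 5 or mutant 2. Few genes of any kind passed in such fits. Without 1 library other than control 5 or mutant 2, 1 to 15 of all genes tested passed, against 345 with all libraries.

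None of the 8 neighbours differed between mutants and controls past the threshold, a Benjamini-Hochberg adjusted p of 0.05 in edgeR's test within litters. Over all 15821 genes tested, 345 did, which is 2.18%. All 8 genes passed the filter on low counts. At an unadjusted p under 0.05 there was 1 of the 8, Acot13, where 21.4% of all genes tested had such a value. DESeq2 called 1 of the 8, again Acot13, and 6.91% of all genes, and limma-voom called 0 of the 8 and 2.77% of all genes. With no filter on low counts edgeR called Acot13 alone of the 8, and 5.35% of all genes. The fitted log2 fold change was above 0 in 5 of the 8 and below 0 in 3, and its median was 0.08, against 0.00 over all genes tested. The median size of the change, without sign, was 0.16 for the 8 genes and 0.18 for all genes. For none of the 8 did the CPM of the groups fail to overlap, as they did for 2.59% of all genes.

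**Figure D1:**
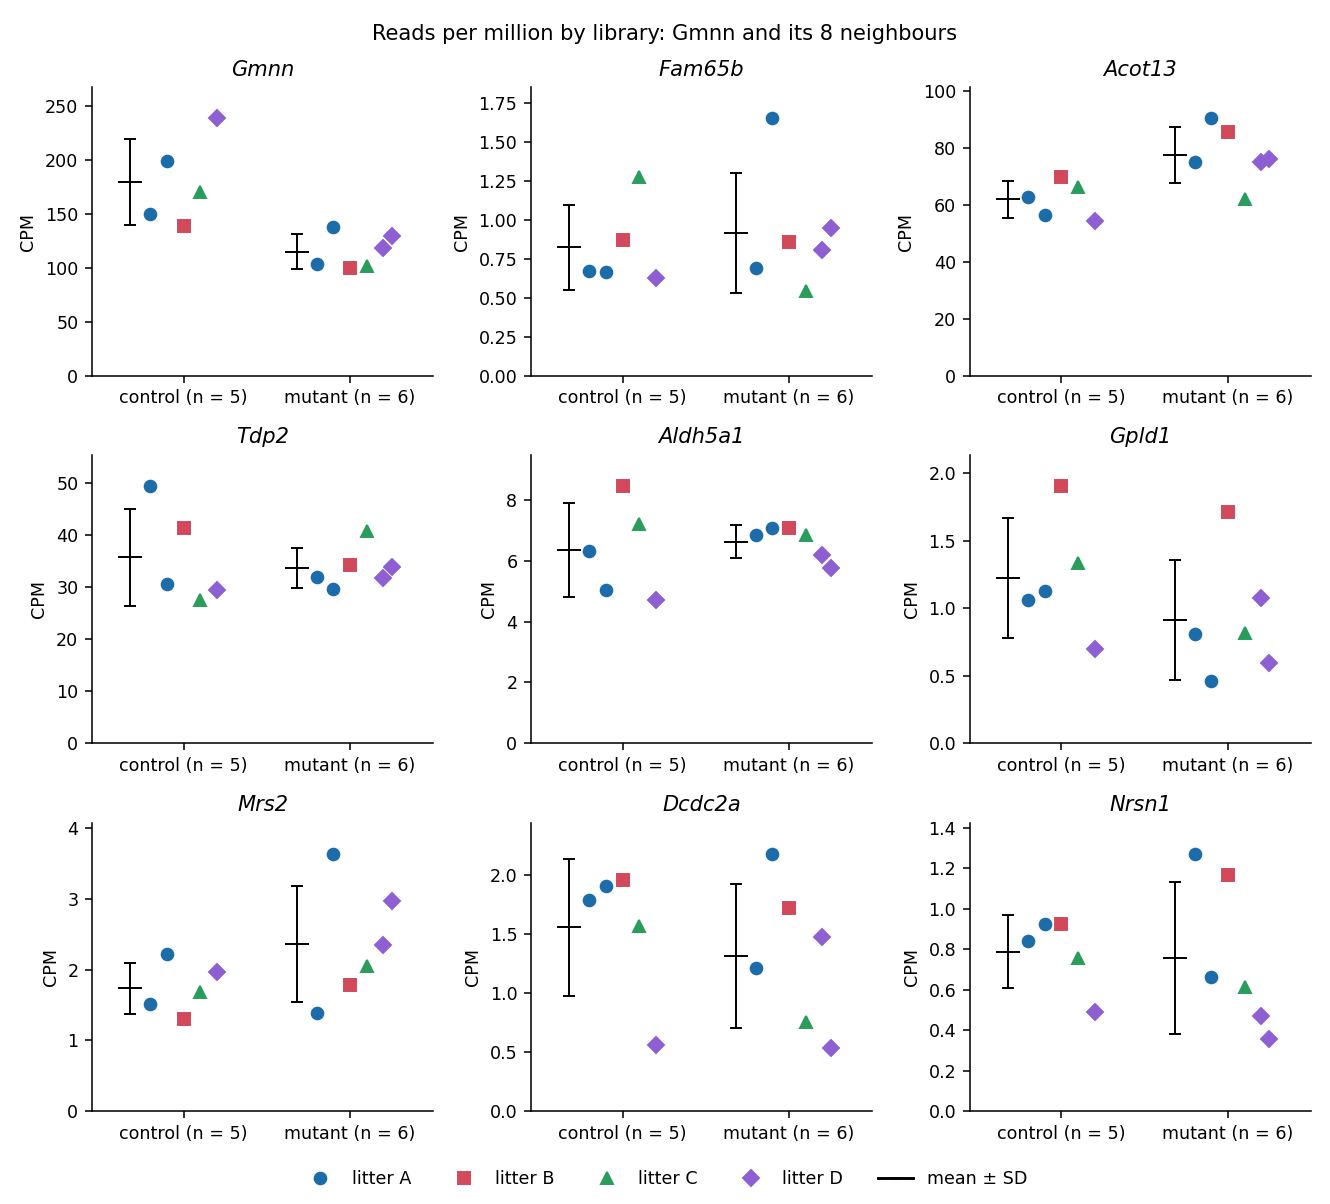
CPM (vertical axes, from 0) of Gmnn and the 8 neighbours in each of the 5 control and 6 mutant libraries, with litter shown by colour and shape and the mean ± SD of each group in black. The mutant libraries lie below every control for Gmnn, and the groups overlap for each of the 8 neighbours.

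Acot13, an acyl-CoA thioesterase linked to mitochondria, came nearest to the threshold. It stood at 62.8, 56.5, 69.8, 66.2 and 54.6 CPM in controls 1 to 5, and at 75.1, 90.6, 75.2, 76.1, 62.3 and 85.8 CPM in mutants 1 to 6. Mutant 5 was the only mutant library within the range of the controls, and the other 5 were above the highest control. Controls averaged 61.98 ± 6.42 CPM (SD, n = 5), mutants 77.5 ± 9.84 CPM (SD, n = 6). This was a log2 fold change of 0.33 (SE 0.09, edgeR quasi-likelihood test, adjusted p 0.0718), or 126% of the control level with a 95% interval of 109.6 to 145.1%.

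By litter, the mutant minus control difference of Acot13 in mean log2 CPM was 0.47 in A, 0.30 in B, -0.09 in C and 0.47 in D. It was thus in 1 direction in 3 of the 4 litters, and litter C, with mutant 5, had the opposite sign. Permuting genotype within litters gave an exact two-sided p of 0.0278, where the smallest that the 72 arrangements can give is 0.0139. Among all genes tested, 16.9% had an exact p under 0.05 in this test, and Acot13 was the only one of the 8. Without mutant 5 the edgeR log2 fold change was 0.43 (adjusted p 0.0569), and without litter C it was 0.44 (adjusted p 0.0556). In each of these fits only 1 of all genes tested passed the threshold. The edgeR value was lower without mutant 2 (0.27, adjusted p 0.117), litter A (0.25, adjusted p 0.311) or litter D (0.29, adjusted p 0.18). With the T-run measure of each library, which goes with genotype within litters, as a covariate it was 0.19 (adjusted p 0.66). The longest T run in Acot13 transcripts was 4 bases.

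Tdp2, on the other side of the 161 bases, encodes a phosphodiesterase that removes trapped topoisomerase 2 from DNA ends. Its level was 49.5, 30.6, 41.5, 27.5 and 29.6 CPM in controls 1 to 5 and 31.9, 29.7, 31.8, 33.9, 40.9 and 34.4 CPM in mutants 1 to 6. All mutants lay within the range of the controls. Controls averaged 35.7 ± 9.41 CPM (SD, n = 5), mutants 33.8 ± 3.85 CPM (SD, n = 6), with a log2 fold change of -0.05 (95% interval -0.38 to 0.28, edgeR adjusted p 0.886). The litters had -0.34 (A), -0.27 (B), 0.57 (C) and 0.15 (D), with no common direction. Its sign turned without control 1 (0.11), litter A (0.15) or litter B (0.0039), and with the T-run covariate (0.40). It also turned, to values near 0, without control 3 (0.0036), mutant 2 (0.0090) or mutant 6 (0.0037).

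The ratio of Acot13 to Tdp2 CPM was 1.81 ± 0.41 (SD, n = 5) in controls and 2.34 ± 0.49 (SD, n = 6) in mutants. Permuted within litters, this ratio had an exact two-sided p of 0.167. By library the ratio was 1.27, 1.85, 1.68, 2.41 and 1.85 in controls 1 to 5 and 2.35, 3.05, 2.36, 2.24, 1.53 and 2.498 in mutants 1 to 6. In litters A, B and D each mutant was above each control of its litter, and in litter C mutant 5 was below control 4. Without litter C, left out after the values were seen, the groups did not overlap. The difference of log2 ratios within litters was then 0.59, against 0.36 with all litters. Its exact two-sided permutation p of 0.0278 is the smallest that the 36 arrangements left can give. As litter C was the only litter with the opposite order, leaving it out fixed this outcome in advance, and no conclusion is drawn from it.

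Aldh5a1 encodes succinic semialdehyde dehydrogenase, the last step in the breakdown of GABA. It stood at 6.32, 5.05, 8.45, 7.20 and 4.69 CPM in controls 1 to 5 and at 6.83, 7.08, 6.18, 5.77, 6.83 and 7.06 CPM in mutants 1 to 6. The mutants fell inside the wider range of the controls. Its log2 fold change was 0.13 (95% interval -0.18 to 0.43, edgeR adjusted p 0.661), and the litters were divided, with 2 above 0 and 2 below.

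Mrs2, a magnesium channel of the inner mitochondrial membrane, was the only one of the 8 genes with the same sign in all 4 litters, as 26% of all genes tested had. Its mutant minus control difference in mean log2 CPM was 0.29 in A, 0.41 in B, 0.27 in C and 0.41 in D. The levels were low, at 1.51, 2.21, 1.31, 1.68 and 1.96 CPM in controls 1 to 5 (24 to 43 reads). In mutants 1 to 6 they were 1.39, 3.64, 2.35, 2.97, 2.05 and 1.78 CPM (24 to 55 reads). Mutants 2, 3 and 4 were above the highest control, and mutants 1, 5 and 6 were within the range of the controls. Its log2 fold change of 0.40 had a 95% interval of -0.19 to 0.99 (edgeR adjusted p 0.424), and the exact permutation p was 0.208. Without mutant 2 the fitted value was 0.16, and with the T-run covariate it was -0.15.

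**Figure D2:**
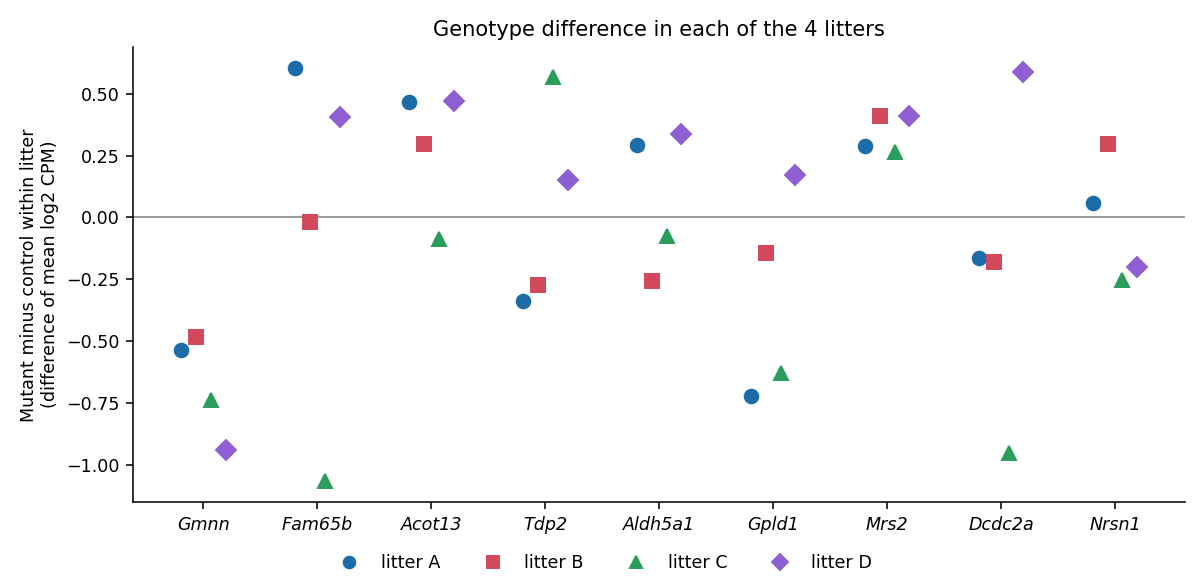
Difference of mean log2 CPM, mutant minus control, in each of litters A to D (vertical axis) for Gmnn and the 8 neighbours. Gmnn is below 0 and Mrs2 above 0 in all 4 litters, and the other 7 genes have litters on both sides of 0.

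The remaining genes act at membranes or on the cytoskeleton and had few reads, 143 to 264 over all 11 libraries. Gpld1 encodes a phospholipase that cuts GPI anchors. It stood at 1.06, 1.13, 1.91, 1.34 and 0.701 CPM in controls 1 to 5 and at 0.810, 0.463, 1.07, 0.595, 0.820 and 1.72 CPM in mutants 1 to 6. The highest library of each group was from litter B, and the groups overlapped over most of their range. Its log2 fold change was -0.40 (95% interval -1.09 to 0.30, edgeR adjusted p 0.512), the litters stood 3 to 1 below 0, and the T-run covariate turned the sign (0.19). Without mutant 2 it was -0.26, and without litter A -0.18.

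Fam65b, now named Ripor2, encodes an inhibitor of the small GTPase RhoA and is the nearest of the 8 genes to Gmnn. Its level was 0.671, 0.669, 0.872, 1.28 and 0.631 CPM in controls 1 to 5 and 0.694, 1.65, 0.806, 0.951, 0.547 and 0.859 CPM in mutants 1 to 6, from 8 to 25 reads each. Mutant 2 was highest and mutant 5 lowest of all 11. Mutant over control, the log2 fold change was 0.19 (95% interval -0.65 to 1.04, edgeR adjusted p 0.821). Litters ranged from -1.07 in C to 0.60 in A. The sign turned without mutant 2 (-0.13), without litter A (-0.20) and with the T-run covariate (-0.67).

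Dcdc2a carries doublecortin domains, which bind microtubules. It stood at 1.79, 1.90, 1.96, 1.57 and 0.561 CPM in controls 1 to 5 and at 1.21, 2.18, 1.48, 0.535, 0.752 and 1.72 CPM in mutants 1 to 6. Control 5 (8 reads) and mutant 4 (9 reads), both of litter D, were the lowest libraries. On the log2 scale the fitted change was -0.12 (95% interval -0.88 to 0.63, edgeR adjusted p 0.877). Without control 5 it was -0.34, and without control 4, mutant 5 or litter C it was 0.08, 0.07 and 0.08, on the other side of 0, and without mutant 1 it was 0.0031.

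Nrsn1 encodes neurensin 1, a vesicle membrane protein of neurons. Its level was 0.839, 0.927, 0.927, 0.755 and 0.490 CPM in controls 1 to 5 and 1.27, 0.662, 0.470, 0.357, 0.615 and 1.17 CPM in mutants 1 to 6. All 3 libraries of litter D were below 0.5 CPM. Mutants and controls had a fitted log2 fold change of 0.03 (95% interval -0.69 to 0.74, edgeR adjusted p 0.976), and its sign turned without control 1 (-0.0138), control 3 (-0.0574), mutant 1 (-0.157) or mutant 6 (-0.0573). The summed level of 8 neural markers was 58.3 to 81.5 CPM in controls and 56.8 to 78.9 CPM in mutants. Of these markers 4 had enough reads to be tested, and none passed. The part of neural cells in the values of Nrsn1 was not tested.

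Counting error and the spread between libraries both bear on how small a difference could be seen. Counting error alone gave a coefficient of variation of 2.93% for Acot13, 4.17% for Tdp2 and 9.63% for Aldh5a1. It was 17.1% for Mrs2, 20.4% for Dcdc2a, 23.7% for Gpld1, 26.3% for Fam65b and 27.7% for Nrsn1. The observed coefficient of variation in controls and mutants was 10.4 and 12.7% for Acot13, 26.3 and 11.4% for Tdp2, and 24.4 and 8.01% for Aldh5a1. It was 20.7 and 34.8% for Mrs2, 37.1 and 46.7% for Dcdc2a, 36.2 and 48.9% for Gpld1, 32.8 and 42.1% for Fam65b, and 22.9 and 49.6% for Nrsn1. The observed spread was thus above counting error in both groups for 6 of the 8 genes, and in 1 group only for Aldh5a1 and Nrsn1. For Acot13, Tdp2, Aldh5a1 and Mrs2 the whole 95% interval lay above the upper bound of the Gmnn interval (-0.44 on the log2 scale). For the other 4 genes the intervals overlapped that of Gmnn, so that a fall as large as in Gmnn was not distinguishable from no change in Gpld1, Dcdc2a and Nrsn1. The lower bound for Fam65b (-0.65) was just above the Gmnn value of -0.67.

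Each gene was also set against Gmnn within each library. The difference of log2 CPM between gene and Gmnn was larger in mutants with an exact two-sided permutation p under 0.05 for 5 of the 8 genes. Among all other genes tested 61.7% had such a p, so that the 8 genes had it at a share near the background. For Acot13 and Mrs2 the shift was 1.01 in both, on the log2 scale, with an exact p of 0.0139 for each and no overlap between groups, as 26.7% of all other genes had on this measure. The lower level of Gmnn itself (-0.67) is part of every such shift. For Tdp2, Dcdc2a and Gpld1 the exact permutation p was 0.0972, 0.153 and 0.375.

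**Figure D3:**
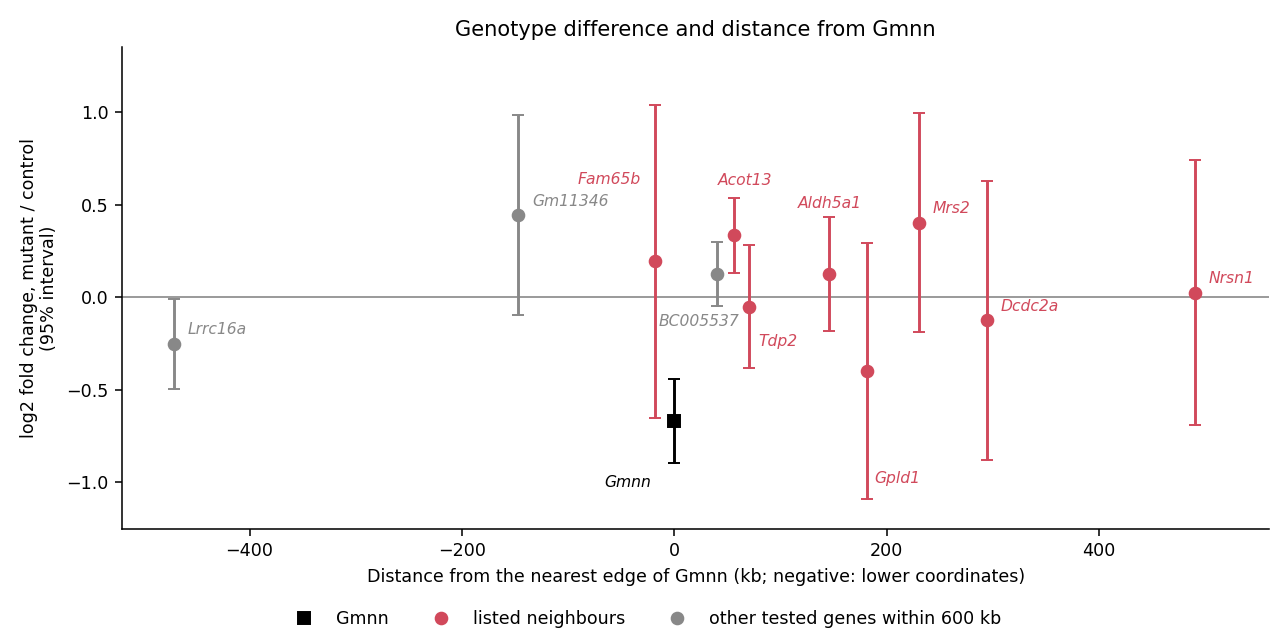
Log2 fold change, mutant over control, with its 95% interval from edgeR (vertical axis) against distance in kb from the nearest edge of Gmnn (horizontal axis), for Gmnn (black), the 8 neighbours (red) and the 3 other tested genes within 600 kb (grey). Acot13 and Lrrc16a are the only 2 of these neighbours whose interval leaves out 0, and the values show no order by distance.

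Distance from Gmnn did not order the differences. The 3 nearest of the 8 genes, Fam65b, Acot13 and Tdp2, had log2 fold changes of 0.19, 0.33 and -0.05, and the 3 farthest, Mrs2, Dcdc2a and Nrsn1, had 0.40, -0.12 and 0.03. Within 600 kb of Gmnn the table held 27 other genes, of which 11 were tested. The 16 that were not tested had at most 67 reads over all libraries. The 3 tested genes that are not among the 8 did not pass the threshold either. BC005537, at 39.7 kb, had a log2 fold change of 0.13 (edgeR adjusted p 0.388), and Gm11346, at 146.9 kb, had 0.44 (edgeR adjusted p 0.33).

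Lrrc16a, now named Carmil1, a regulator of actin capping protein, lies 471.1 kb from Gmnn on the side of Fam65b. It stood at 9.39 to 11.9 CPM in controls and 8.14 to 9.91 CPM in mutants, lower in all 4 litters though the groups overlapped. Its log2 fold change was -0.25 (unadjusted p 0.0431, edgeR adjusted p 0.221). Its longest T run was 23 bases, and that of BC005537, with a log2 fold change of 0.13, was 21 bases.

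In a wider view, none of 33 tested genes within 2 Mb of Gmnn passed the edgeR threshold. Of the 33, 6 (18.2%) had an unadjusted p under 0.05, against 21.4% of all genes tested. Within 5 Mb 2 of 63 passed (3.17%), and on the whole chromosome, without Gmnn, 12 of 575 (2.09%), against 2.18% of all genes. Those 2, named after their values were seen, were Zscan26, a zinc finger gene 3.3 Mb away, and Prl7a1, a gene of the prolactin family 2.87 Mb away. Zscan26, with a run of 29 T bases, fell by 1.06 on the log2 scale (edgeR adjusted p 0.0406). With the T-run covariate it fell by 0.15 (edgeR adjusted p 0.608), but Zscan26 is itself 1 of the 975 genes averaged in that measure. That fit therefore cannot decide whether its fall goes with the T run. Prl7a1 rose by 4.66 (edgeR adjusted p 0.0457) from 0 to 10 reads in controls to 1 to 358 reads in mutants. Other genes of its family within 5 Mb did not pass in edgeR. These were Prl8a2 (5.23, adjusted p 0.0963), Prl3d1 (2.65, adjusted p 0.2) and Prl3b1 (0.18, adjusted p 0.774). Which cells these reads came from was not tested. Prl7a1 lost its call without any 1 library other than control 5, and Zscan26 without any 1 other than control 5 or mutant 2. In the fits without 1 library other than control 5 or mutant 2, at most 15 of all genes tested passed. The call of Prl7a1 was also lost in DESeq2 (adjusted p 0.109), in limma-voom (adjusted p 0.115) and with the T-run covariate (0.92, edgeR adjusted p 0.869).

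The levels of the 8 genes, compared per length as reads per kilobase of exon on the same scaled totals (RPKM), covered a range of more than 3 powers of 10. Acot13 was highest, at a mean of 97.7 RPKM over the 11 libraries, above 95% of the genes tested. Tdp2 followed at 16.5 RPKM and did not overlap with Acot13 in any library. Aldh5a1 (1.15 RPKM) and Mrs2 (1.02 RPKM) changed places between libraries, with Aldh5a1 above in 6 of 11. Gpld1 (0.295 RPKM) and Nrsn1 (0.288 RPKM) did so too, with Gpld1 above in 6 of 11. Dcdc2a (0.172 RPKM) was above Fam65b (0.0751 RPKM) in 10 of 11 libraries. Acot13 and Tdp2 were above the median of genes tested, 2.99 RPKM, and the other 6 genes were below it. Exon length is the sum over all annotated transcripts, 11662 bases for Fam65b, and its part in these values was not tested. Fam65b also had few reads before scaling by length, 159 over all libraries.

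**Figure D4:**
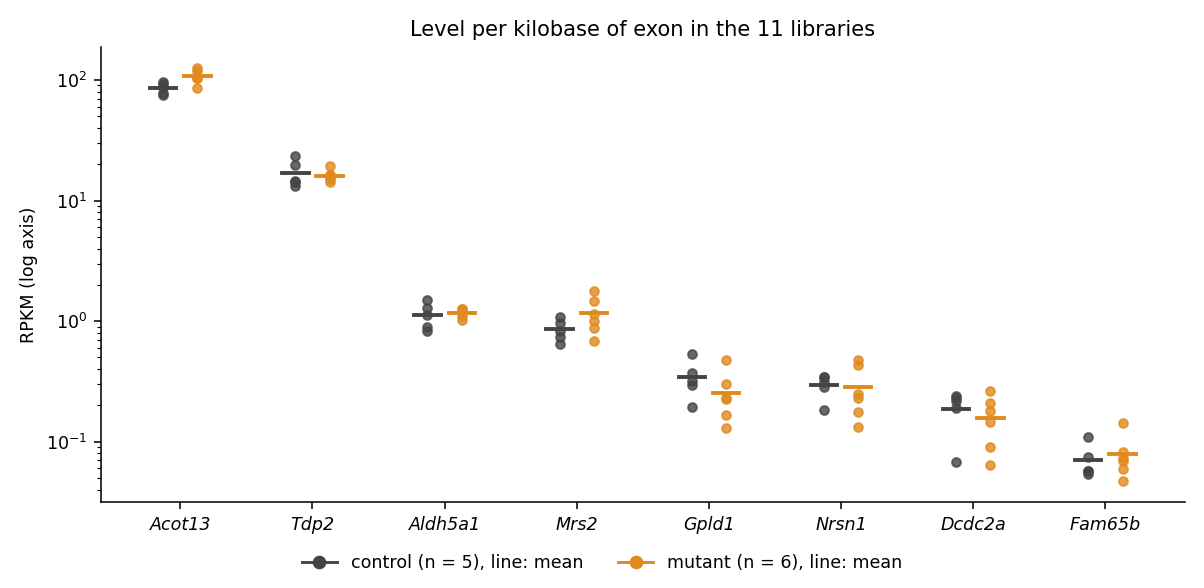
RPKM of the 8 neighbours in 5 control (grey) and 6 mutant (orange) libraries on a log axis, ordered by mean level, with lines at the group means. Acot13 and Tdp2 stand apart at the top, and the next 6 genes overlap with a neighbour in this order.

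Litter as well as genotype could set these genes apart. Between litters, 0 of the 8 passed edgeR's test after adjustment, as 0.0885% of all genes did, and 0 had a raw p below 0.05, as 13.5% of all genes had. An interaction of genotype with litter passed for 0 of the 8 and for 0% of all genes (edgeR, smallest adjusted p 0.95). No gene of the 8 had an unadjusted interaction p under 0.05, against 605 of all genes (3.82%).

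The genes most like each neighbour were sought by the Pearson correlation of log2 CPM over the 11 libraries. The best of 15820 coefficients over 11 points is high by its nature, and it was 0.90 to 0.96 for the 8 genes. The 2 most alike were Rab6a and Mad2l2 for Acot13, Fam207a and Paox for Tdp2, 1700021F13Rik and Zfp750 for Aldh5a1, and Orc6 and Arpc3 for Mrs2. They were Cbx5 and Zfp738 for Gpld1, Acpt and Max for Fam65b, Lypd3 and Acat1 for Dcdc2a, and Gtf2ird2 and 9230105E05Rik for Nrsn1. No neighbour was among them. Acot13 ranked 9784th of 15820 in likeness to Tdp2, its partner across the 161 bases. The closest rank of 1 of the 8 genes to another was that of Acot13 for Fam65b, at 237.

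Relatives and partners of the 8 genes elsewhere in the genome were read from the same fit. Of 42 listed genes, 32 were tested and 2 passed, 1 in each direction, where 2.18% of all genes tested passed. An unadjusted p under 0.05 in edgeR was found for 7 of the 32, and for 21.4% of all genes tested. The median log2 fold change of the 32 was 0.02. Acot2, a mitochondrial thioesterase, averaged 49.9 ± 10.1 CPM (SD, n = 5) in controls, and fell to 32.3 ± 4.44 CPM (SD, n = 6), with -0.58 as log2 fold change (edgeR adjusted p 0.0454). Acot2 has close copies in the same gene family, among them Acot1 (0.53, edgeR adjusted p 0.0879), and how reads were divided between such copies was not tested, so both values are uncertain. Rhoc, a small GTPase, averaged 96.5 ± 16.7 CPM (SD, n = 5) in controls, and rose to 122.4 ± 16.6 CPM (SD, n = 6), with 0.35 as log2 fold change (edgeR adjusted p 0.0406). Left out in turn, each library other than control 5 ended the call of Acot2, and each other than control 5 or mutant 2 that of Rhoc. At most 15 of all genes tested passed in the fits without 1 library other than control 5 or mutant 2. With the T-run covariate Acot2 had -0.17 (adjusted p 0.701) and Rhoc 0.25 (adjusted p 0.401) in edgeR, and with no litter block the edgeR adjusted p was 0.0501 for Acot2 and 0.118 for Rhoc. Tdp1, the sister repair enzyme of Tdp2, had -0.21 (edgeR adjusted p 0.152), and Top2a and Top2b, the topoisomerases that Tdp2 acts on, had -0.10 and 0.00.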

How the data were processed

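The authors deposited raw counts of reads by gene symbol from featureCounts 1.4.6-p4 on mm10 and GENCODE M9 with a mapping quality of at least 10, per the file headers. STAR 2.5.4b is named in the submitters' processing notes. The Length column holds summed exon bases (other unit) as deposited. Coordinates and exon overlap came from the counts table, T runs from GENCODE M21 transcripts by symbol.

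Counts were tested with edgeR 4.0.16 in R 4.3.3: filterByExpr, TMM factors and the quasi-likelihood F test on litter and genotype, two-sided, with Benjamini-Hochberg adjustment over 15821 genes and a threshold of 0.05. The pairing by litter comes from the titles and the design text. SE and 95% intervals come from the same fit. CPM and RPKM use TMM-scaled totals, and log2 CPM a prior count of 2. Single genes were also tested by exact permutation of genotype within litters. The test relative to Gmnn was added after values were seen, and the ratio of Acot13 to Tdp2 was not planned. The fit was tested on simulated data. Alternatives used DESeq2 1.42.0, limma-voom 3.58.1, other scalings and filters, no block, a T-run covariate and left-out libraries or litters.

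The 8 genes, the lists and the alternatives were chosen with earlier results of these data known. Named besides the 8 and Gmnn were tested genes within 600 kb, relatives past the threshold and the 2 genes most alike. Outside this rule, the relatives Acot1, Tdp1, Top2a and Top2b were named though they did not pass. Cell type markers, Zscan26 and genes of the prolactin family within 5 Mb were also named.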

Additional observations from a re-analysis of the deposited data

Results flagged for a closer look

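Dcdc2a was flagged in control 5, at -0.554 log2 CPM (8 reads), where the next lowest control stood at 0.756 and the highest at 1.06. The gap is 81.2% of the range of the controls. Of 18 groups examined (8 neighbours and Gmnn in both genotypes), this was the only one with such a library, where chance flags about 0.9.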

How the results depend on the processing

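The count of neighbours past the threshold, 0 with litter as the paired block, was 0 in 21 of 23 alternatives. Among these was the fit with no replicate block (0 of 8, where 16 of 14566 genes passed). The count of neighbours was 1 (Acot13) in DESeq2 (adjusted p 0.0251, with 6.91% of all genes called). It was also 1 (Acot13) with no filter on low counts (edgeR adjusted p 0.0101, with 5.35% of 29256 genes called). The reported fit called 2.18% of all genes. Fam65b and Nrsn1 were not tested under the filter of 1 CPM in 5 libraries. The counts of the 8 genes for litter and interaction were run with RLE scaling and no filter. That for exact permutation was run with RLE scaling and a prior count of 0.5. None of these counts of the 8 moved. Over all genes, no filter gave 1583 of 29256 past the edgeR threshold for litter and 438 for interaction. The reported fits gave 14 and 0 of 15821. Over the 23 alternatives the number of all genes called ran from 1 to 1566. With 1 library left out it was 1 to 15, except without control 5 (850) or mutant 2 (279). Without litters A, B, C and D it was 9, 3, 1 and 148, and with the T-run covariate 2. Where so few of all genes passed, a count of 0 of 8 says little about the neighbours. Acot13 and Aldh5a1 kept their sign in all 23, with log2 fold changes of 0.19 to 0.44 and 0.02 to 0.22. The T-run covariate, which is lower in every mutant than in the controls of its litter, turned the sign of Tdp2 (0.40), Fam65b (-0.67), Gpld1 (0.19) and Mrs2 (-0.15). Without litter A, Tdp2 had 0.15, Fam65b -0.20 and Nrsn1 -0.0500. Without litter B, Tdp2 had 0.0039 and Nrsn1 -0.0554, without litter C Dcdc2a had 0.0762, and with no replicate block Nrsn1 had -0.0578. With 1 library left out, values ran from -0.19 to 0.11 for Tdp2, -0.13 to 0.51 for Fam65b, -0.34 to 0.0757 for Dcdc2a and -0.16 to 0.14 for Nrsn1. The cause of these turns was not tested. Gmnn kept its sign in all 23 and its call in 11. The 5 genes with at most 374 reads in all have counting errors of 17.1 to 27.7%.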
